A study of Mus musculus with 28 samples.

Results

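RNA from mouse CD4+ T cells exposed to interleukin-2 (IL-2) for 0.5 h was set against RNA from the same kind of cells left without cytokine. The comparison rests on 2 libraries, 1 on each side, of the 9 RNA libraries used here and the 28 samples of the series. The other RNA libraries held cells after 2, 4 and 24 h of IL-2 and after 0.5, 2, 4 and 24 h of IL-21, and the 19 chromatin immunoprecipitation samples were not analysed here. All RNA came from splenic T cells of wild-type C57BL/6 mice, per the labels. In every RNA group, the one without cytokine included, the cells had first been activated on plate-bound anti-CD3 with anti-CD28 for 3 days and then rested overnight. They are therefore pre-activated T cells and not naive ones. The labels give no cytokine dose for the RNA cultures and do not say how many mice stood behind a library. With 1 library per condition there was no replicate check of any difference, and no p-value was computed for it.

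IL-2 is the growth factor of activated T cells. Its receptor joins an alpha chain, which raises affinity, to a beta chain and the common gamma chain, which carry the kinases JAK1 and JAK3. These phosphorylate STAT5, which enters the nucleus and binds genes directly, while the RAS to ERK and PI3K to AKT pathways run in parallel. STAT5 and the kinases are present before the cytokine arrives, so the first transcripts need no new protein. Genes for feedback inhibitors, cytokines and immediate early transcription factors are known among these early responders.

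The authors counted reads per RefSeq transcript and gave RPKM, reads per kilobase of transcript scaled to library size. The library with IL-2 had 29487905 reads by the total behind the authors' RPKM values and the one without cytokine 34372971 reads, so that 1 read in a transcript of 1 kb was worth 0.0339 and 0.0291 RPKM. Each gene was represented by 1 transcript, and a difference was log2(RPKM + 1) with IL-2 minus log2(RPKM + 1) without cytokine. This scale understates the change of low genes, so ratios of RPKM are given beside it with an exact 95% interval that covers counting error only. Of 11047 genes that reached 1 RPKM in at least 1 RNA library, 45 reached 2-fold on the higher side (0.407%) and 4 on the lower side (0.0362%), 49 or 0.444% either way. All 49 had a counting interval that excluded a ratio of 1.

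The remainder of the transcriptome lay close to its level without cytokine. The median difference over all genes was 0.02, the 1st and 99th percentiles were -0.45 and 0.61, and 94.8% of genes were within 1.25-fold. At 1.5-fold, 119 genes were higher and 45 lower. At 4-fold, 11 were higher. The plot of both libraries shows a narrow diagonal with a set of genes standing above it and few below.

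**Figure D1:**
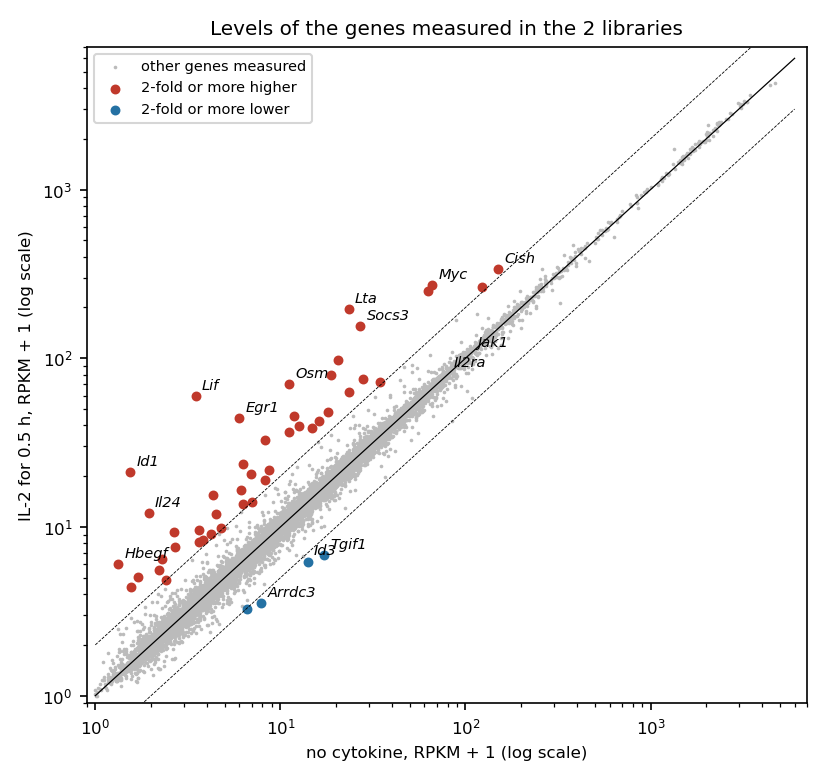
Level of each of the 11047 genes with IL-2 for 0.5 h (vertical, RPKM + 1, log scale) and without cytokine (horizontal, RPKM + 1, log scale), 1 library each. The solid line marks equal levels and the dashed lines 2-fold; 45 red genes lie above the upper dashed line and 4 blue genes below the lower one, while Il2ra and Jak1 lie on the diagonal.

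The cells carried the markers of their label. Cd4 stood at 208 RPKM with IL-2 and 207 RPKM without cytokine, Cd3e at 203 and 194, and the 12 CD4 T cell markers had a median difference of 0.05. Apart from Gzma, every listed marker of other cell types was lower than each of the 12 CD4 T cell markers. Not all of them were alike in both libraries. The 9 B cell markers summed to 59.0 RPKM with IL-2 and 59.8 RPKM without, the 9 macrophage markers to 9.60 and 10.1 RPKM, and the 5 dendritic markers to 2.19 and 2.27 RPKM. Of the B cell markers, Cd79b stood at 15.1 RPKM with IL-2 and 16.5 RPKM without, Ms4a1 at 11.5 and 13.8, and Cd79a at 12.2 and 11.7. These were above 9.56 RPKM, the median over all genes without cytokine, and the other B cell markers were under it. B cell transcripts were thus present in both libraries. Fcgr1 and Siglech had 0 reads in both libraries, against a floor for 3 reads of 0.0393 RPKM with IL-2 and 0.0337 RPKM without for Fcgr1, and of 0.0424 and 0.0364 RPKM for Siglech. The CD8 gene Cd8b1 stood at 10.5 and 9.18 RPKM and Cd8a at 0.433 and 0.548 RPKM. The 5 erythroid markers summed to 1.05 RPKM with IL-2 and 2.78 RPKM without, with 8 and 26 reads for Hbb-b1 (ratio 0.359, 0.140 to 0.816) and as many for its close copy Hbb-b2. The NK markers were led by Gzma, which T cells also express, at 183 and 191 RPKM. Ncr1 had 2 reads with IL-2 and 11 without, while Eomes, a transcription factor of NK cells and some T cells, had 286 reads (2.61 RPKM) and 130 reads (1.02 RPKM), a ratio of 2.56 (2.08 to 3.18). The part of these markers in other differences was not tested. In bulk RNA, fewer cells of a type and less RNA per cell cannot be told apart.

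Among the genes at or over 2-fold higher were 11 encoding cytokines or growth factors, 4 encoding feedback inhibitors of cytokine signals, 6 encoding immediate early or growth transcription factors, and 6 encoding other regulators of transcription. A further 5 encode receptors or surface proteins, 6 kinases, phosphatase subunits or signal regulators, and 3 stress and growth regulators. Roles were assigned only to the genes past 2-fold. No share of each role over all genes measured can be set beside these counts, so they do not show that a role is over-represented. The plot of ratios shows all 49 with their counting intervals.

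**Figure D2:**
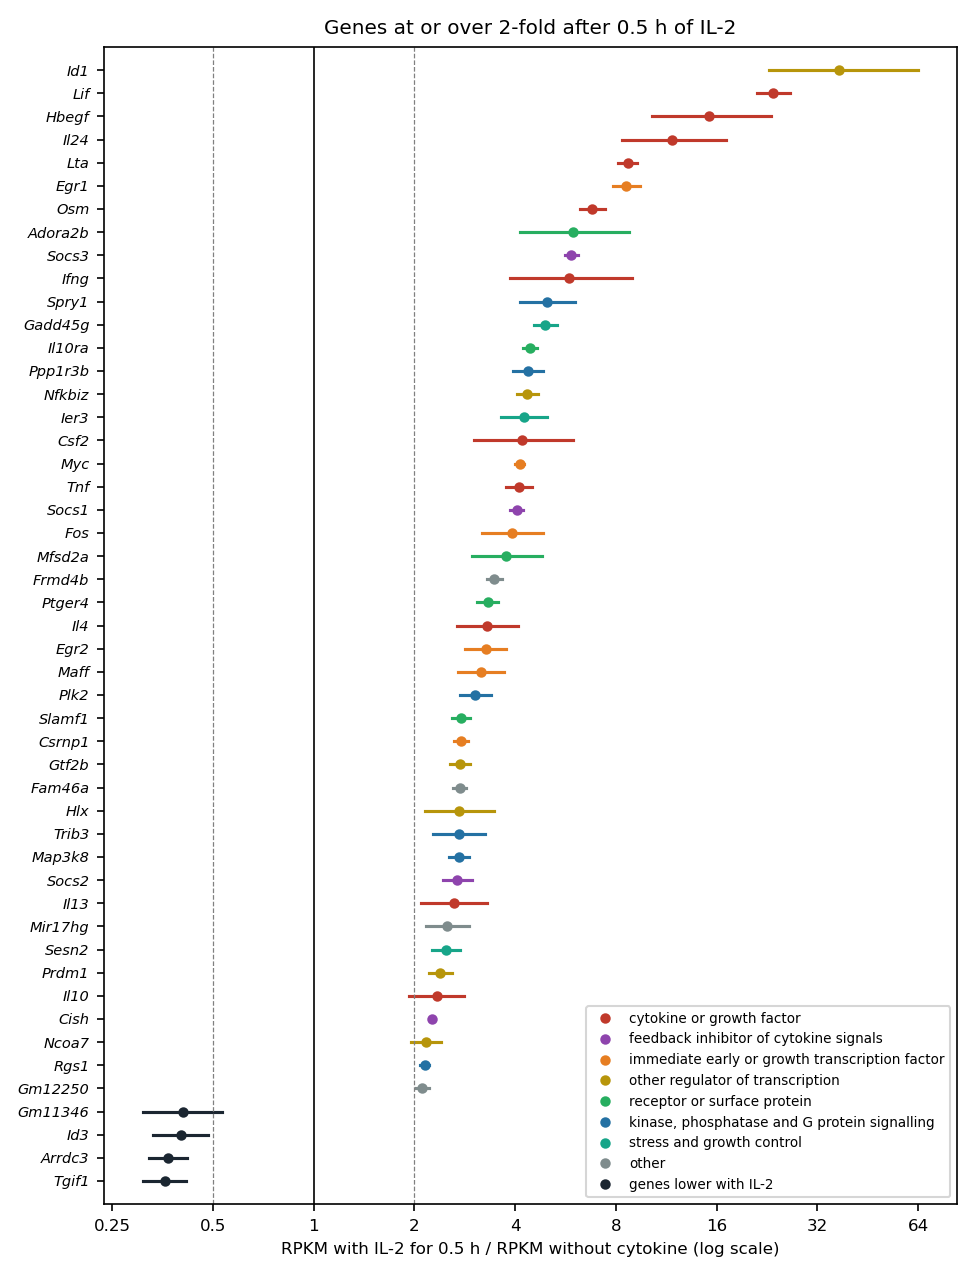
Ratio of RPKM with IL-2 for 0.5 h to RPKM without cytokine (horizontal, log scale) for the 49 genes at or over 2-fold, coloured by role; points are the ratios of 1 library each and bars their 95% counting intervals, and dashed lines mark ratios of 2 and 0.5. Id1 at 37.0 and Lif at 23.6 stand farthest to the right and Tgif1 at 0.359 farthest to the left.

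Promoter sequences were searched for the letters that STAT proteins recognise, TTCNNNGAA, which reads the same on both strands. RefSeq promoters of GRCm38.p6 (250 bases before the start to 50 bases after it, 300 in all) were at hand for 32 of the 45 higher genes, and 8 of the 32 held the motif (25%), beside 8.5% of the 8788 measured genes with a promoter. The stricter form TTCCNGGAA, which is contained in the first, was in 2 of 32 (6.25%) beside 1.60%. The AP-1 letters TGANTCA were in 4 (12.5% beside 5.81%), the serum response element in 2 (6.25% beside 1.58%), the cyclic AMP response element in 2 (6.25% beside 3.82%) and the E box CACGTG, which MYC binds, in 3 (9.38% beside 12.1%). Of the 4 lower genes 3 had a promoter at hand, and that of Tgif1 held the STAT letters. Each of these motifs reads the same on both strands, and a gene counted where any of its listed promoters held the letters. A match describes the sequence and does not show binding.

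The 8 STAT matches are shown with their flanks, 5′ to 3′ on the gene's own strand and with the motif in capitals, so that the letters between the conserved ends can be compared. They lie at chr9:107296651-107296686 for Cish, chr15:79347539-79347563 for Maff, chr17:35205351-35205375 for Lta, chr11:117969504-117969528 for Socs3, chr11:53617326-53617350 for Il4, chr9:119984693-119984713 for Csrnp1, chr10:118440796-118440813 for Ifng and chr11:58183774-58183798 for Gm12250. Cish, Maff, Ifng and Gm12250 are on the plus strand and the others on the minus strand.
Cish: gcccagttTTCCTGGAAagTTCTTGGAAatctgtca
Maff: gtgagtaaTTCCGGGAAgctcgcct
Lta: gactccctTTCCCAGAAcgcagtag
Socs3: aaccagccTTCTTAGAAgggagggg
Il4: ttcctgttTTCATGGAAacacacca
Csrnp1: ggtcgagcTTCCACGAAggct
Ifng: tTTCAGAGAAtcccacaa
Gm12250: ttactatgTTCTCAGAAatctgctt
Cish holds 2 copies side by side, and Cish and Maff are the genes with the stricter form. In Maff, Il4 and Csrnp1 the match is in 1 of 3, 1 of 2 and 1 of 4 listed promoters.

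Lta holds a second match farther upstream. The 250 bases before its start, chr17:35205352-35205601 on the minus strand of GRCm38.p6, are shown because Lta is the most abundant of the 11 higher cytokine genes and both of its matches fall in this stretch, at -152 and -16 relative to the start.
Lta: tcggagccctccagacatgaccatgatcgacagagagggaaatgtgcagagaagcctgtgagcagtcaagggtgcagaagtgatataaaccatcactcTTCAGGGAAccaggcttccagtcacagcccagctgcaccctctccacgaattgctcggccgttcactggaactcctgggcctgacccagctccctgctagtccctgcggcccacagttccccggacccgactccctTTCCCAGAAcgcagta

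None of the genes for the machinery that receives IL-2 differed by 2-fold. Il2ra, the alpha chain, had 80.5 RPKM with IL-2 and 78.5 RPKM without cytokine, a ratio of 1.03 (95% counting interval 0.999 to 1.05). Il2rg, the common gamma chain, had 327 and 322 RPKM, and Il2rb, the beta chain, 203 and 169 RPKM, a ratio of 1.20 (1.18 to 1.23). The receptor chain with the largest difference was thus the beta chain, at 0.27 on the log2 scale. Jak1 stood at 107 RPKM in both libraries, Jak3 at 86.0 with IL-2 and 81.1 without, Stat5a at 37.6 and 34.98, Stat5b at 47.3 and 45.1, and Stat3 at 67.7 and 66.3. Of 28 receptor and signalling genes listed, 28 were measured and 0 reached 2-fold in either direction. That is close to the share over all genes, 0.444%, so the count does not set this list apart. Their median difference was 0.03 beside 0.02 over all genes. The kinase genes Map2k2 and Mapk3, of the cascade from RAS to ERK, had 33.8 and 42.6 RPKM in the IL-2 library, against 29.5 and 39.7 RPKM in the other.

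Feedback inhibitors separated into 4 SOCS family genes that were higher and the others that were not. SOCS proteins bind the receptor or its JAK kinases through an SH2 domain and stop the signal. Socs3 had 12319 reads (153 RPKM) with IL-2 and 2441 reads (26.1 RPKM) without, a ratio of 5.88 (5.63 to 6.15). Socs1, the JAK kinase inhibitor, stood at 250 and 62.0 RPKM, a ratio of 4.04 (3.87 to 4.22). Socs2, best known as a brake on growth hormone signals, stood at 20.8 and 7.73 RPKM, a ratio of 2.69 (2.43 to 2.98). Cish, a STAT5 target that competes with STAT5 at the receptor, was the most abundant gene of the 45 both with IL-2 (336 RPKM) and without (149 RPKM), and its ratio was 2.26 (2.205 to 2.31). Cish, the highest of the 4 without cytokine, thus had the smallest ratio among them. The other SOCS genes were within 1.25-fold: Socs4 at 14.4 and 13.9 RPKM, Socs5 at 3.80 and 4.25, Socs6 at 4.14 and 4.13, and Socs7 at 4.72 and 4.68. The PIAS genes, whose products restrain STATs, and the phosphatase genes Ptpn1, Ptpn2, Ptpn6 and Ptpn11 were within 1.25-fold as well, from a difference of -0.23 for Ptpn2 to 0.15 for Ptpn1. Over the list of 17, 4 reached 2-fold on the higher side, beside 0.407% of all genes, and 0 on the lower, and the median was 0.05.

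Of the cytokine genes, Lif had the largest difference on the log2 scale and the largest ratio. The order of those after it depends on the scale: Lta came next at 3.06 with 1 RPKM added, whereas Hbegf and Il24 came next by ratio. Lif, leukaemia inhibitory factor, had 6551 reads (58.5 RPKM) with IL-2 and 324 reads (2.48 RPKM) without, a ratio of 23.6 (21.1 to 26.4). Osm, oncostatin M, which signals through the same gp130 chain, stood at 69.3 and 10.2 RPKM, a ratio of 6.81 (6.27 to 7.40). Both belong to the IL-6 family. Lta, lymphotoxin alpha, had 194 RPKM with IL-2 and 22.4 RPKM without, a ratio of 8.67 (8.13 to 9.25). Tnf, its relative and genomic neighbour, had 44.8 and 10.9 RPKM, a ratio of 4.10 (3.75 to 4.496). Il24, an IL-10 family cytokine, had 363 reads (11.03 RPKM) with IL-2 and 36 reads (0.938 RPKM) without, a ratio of 11.8 (8.33 to 17.05). Il10 itself had 8.83 and 3.79 RPKM, a ratio of 2.33 (1.93 to 2.82), so its counting interval reaches under 2.

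Signature cytokines of both T helper types were among the higher genes. The Th2 cytokine gene Il4 stood at 19.7 RPKM with IL-2 and 5.97 RPKM without, a ratio of 3.29 (2.67 to 4.07), and Il13 at 7.34 and 2.80 RPKM, a ratio of 2.62 (2.10 to 3.29). Ifng, the Th1 cytokine, had 144 reads (4.05 RPKM) and 29 reads (0.699 RPKM), a ratio of 5.79 (3.86 to 8.95). Csf2, which encodes GM-CSF, had 166 reads (5.45 RPKM) with IL-2 and 46 reads (1.30 RPKM) without, a ratio of 4.21 (3.02 to 5.97). These low genes have wide intervals, and the scale with 1 RPKM added gives them less weight than their ratios. With 4 RPKM added in place of 1, Ifng, Csf2, Il13 and Il10 fell short of 2-fold, as did Egr2, Fos, Prdm1 and Hlx among the transcription factors. Hbegf, a growth factor of the EGF family, had 351 reads (5.01 RPKM) and 27 reads (0.331 RPKM), a ratio of 15.2 (10.2 to 23.3). Il2 itself had 7 reads with IL-2 and 18 without, a ratio of 0.453 (0.160 to 1.14) that could not be told from 1 at this depth. Of 38 cytokine and chemokine genes listed, 28 were measured, 11 were at or over 2-fold higher, beside 0.407% of all genes, 0 were lower, and the median was 0.57. Like the other gene lists here, this one was chosen with results of these libraries known, so its share is no independent evidence. Hbegf reached 1 RPKM, and so was measured, only in the IL-2 libraries. The chemokine gene Cxcl10 had the lowest value, 2.405 RPKM with IL-2 and 5.18 RPKM without (-0.86).

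Several of these genes sit side by side. In the RefSeq gene order of assembly GRCm38.p6, in which 44 of the 45 higher genes could be placed, 4 pairs lay within 5 protein-coding positions of each other. Lif and Osm on chromosome 11, Il4 and Il13 on chromosome 11, and Lta and Tnf on chromosome 17 have 0 protein-coding genes between them. Il10 and Il24 on chromosome 1 have 2 between them. In each pair one gene had the larger ratio: Lif against Osm (23.6 and 6.81), Lta against Tnf (8.67 and 4.10), Il4 against Il13 (3.29 and 2.62) and Il24 against Il10 (11.8 and 2.33).

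Immediate early transcription factors, which are switched on without new protein synthesis, included some of the larger differences, beside members that were lower. Egr1, the zinc finger factor downstream of ERK, had 3904 reads (43.1 RPKM) with IL-2 and 529 reads (5.01 RPKM) without, a ratio of 8.60 (7.85 to 9.44), and Egr2 had 8.62 and 2.64 RPKM, a ratio of 3.27 (2.84 to 3.77). Fos, the AP-1 subunit, was low in both libraries at 6.58 and 1.68 RPKM, a ratio of 3.91 (3.19 to 4.83). Myc, the driver of cell growth, was abundant: 19024 reads (269 RPKM) with IL-2 and 5365 reads (65.1 RPKM) without, a ratio of 4.13 (4.01 to 4.26). Myc thus gained more RPKM than any of the other genes at or over 2-fold. Maff, a small MAF factor, stood at 10.98 and 3.47 RPKM, a ratio of 3.16 (2.70 to 3.71), and the nuclear protein gene Csrnp1 at 61.7 and 22.4 RPKM, a ratio of 2.75 (2.62 to 2.89). Of 35 immediate early genes listed, 33 were measured, 7 reached 2-fold on the higher side and 0 on the lower, beside 0.407% and 0.0362% of all genes. On the list 26 lay above 0, beside 6158 of 11047 genes, and the median was 0.58. The list also held genes with lower values: Btg2, an antiproliferative gene, at 18.8 RPKM with IL-2 and 35.5 RPKM without (-0.89), and the quiescence factor Klf2 at 11.9 and 21.29 RPKM (-0.79).

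The partners of MYC and its ribosome biogenesis targets were described as 2 lists. Of 11 measured genes of the MYC network, Myc alone was at or over 2-fold higher, beside 0.407% of all genes, and the median was 0.07. Max, the binding partner, and the antagonists were in the remaining 10, from Mxd1 at 16.1 RPKM with IL-2 and 18.7 RPKM without (-0.21) to Mycn, which had 27 and 15 reads, a ratio of 2.10 (1.08 to 4.24). The 26 ribosome biogenesis genes, which MYC is known to activate, had a median of 0.01 with 0 at or over 2-fold in either direction, beside 0.444% of all genes. Their highest values were 12.9 RPKM with IL-2 and 9.96 RPKM without for Ppan (0.35), and 10.5 and 8.23 RPKM for Rrp9 (0.31), and the lowest were Nop58 at 32.6 and 36.2 RPKM (-0.14) and Npm1 at 781 and 853 RPKM (-0.13). In the later IL-2 libraries Ppan stood at 33.1, 43.9 and 34.7 RPKM at 2, 4 and 24 h. After the same times of IL-21 it stood at 24.5, 20.0 and 13.5 RPKM, also above its level without cytokine. The part of MYC in these levels was not tested.

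The host transcript of the miR-17-92 microRNAs, Mir17hg, which MYC is also known to activate, was among the higher genes. It had 558 reads (8.09 RPKM) with IL-2 and 259 reads (3.22 RPKM) without, a ratio of 2.51 (2.16 to 2.92). RefSeq lists 11 mature arms for these microRNAs. The 6 shown are 1 arm of each microRNA, those by which the cluster's seed families are usually named, because the seed guides which messenger RNAs are bound, and the other 5 arms are not shown. Sequences are from RefSeq, GRCm38.p6, plus strand of chromosome 14, written 5′ to 3′ with the seed (bases 2 to 8) in capitals.
mmu-miR-17-5p: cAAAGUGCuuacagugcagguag
mmu-miR-20a-5p: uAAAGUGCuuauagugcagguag
mmu-miR-18a-5p: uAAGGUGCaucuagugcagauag
mmu-miR-19a-3p: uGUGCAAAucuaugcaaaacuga
mmu-miR-19b-3p: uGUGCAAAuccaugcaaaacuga
mmu-miR-92a-3p: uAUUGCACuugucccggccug
These lie at chr14:115043684-115043706 (miR-17), chr14:115044183-115044205 (miR-20a), chr14:115043867-115043889 (miR-18a), chr14:115044048-115044070 (miR-19a), chr14:115044358-115044380 (miR-19b) and chr14:115044476-115044496 (miR-92a). Among these 6 arms, miR-17 and miR-20a share one seed and miR-19a and miR-19b another, while miR-18a and miR-92a each have their own. Libraries of fragments of this size do not measure mature microRNAs, so the values above are those of the host transcript alone.

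Other regulators of transcription were led by Id1. ID proteins pair with E proteins and keep them off DNA. Id1 had 540 reads (20.1 RPKM) with IL-2 and 17 reads (0.543 RPKM) without, a ratio of 37.0 (22.9 to 64.0), the largest ratio of the 45. Its relative Id3 went the other way, with 147 reads (5.23 RPKM) with IL-2 and 427 reads (13.0 RPKM) without, a ratio of 0.401 (0.330 to 0.485). Nfkbiz, an atypical I-kappa-B protein that works in the nucleus, stood at 31.8 and 7.30 RPKM, a ratio of 4.35 (4.05 to 4.69). It was the only one of 22 NF-kappaB subunits and targets at or over 2-fold, beside 0.444% of all genes, and the list's median was 0.00. The NF-kappaB inhibitor gene Tnfaip3 was at 62.1 RPKM with IL-2 and 75.6 RPKM without (-0.28), with Birc2 lowest at 22.5 and 28.5 RPKM (-0.32), and Cd83 was the next highest at 22.1 and 17.9 RPKM (0.29). Prdm1, which encodes the effector regulator BLIMP-1, stood at 12.7 and 5.29 RPKM, a ratio of 2.39 (2.21 to 2.59). Its opponent Bcl6 stood at 3.20 and 4.14 RPKM, a ratio of 0.772 (0.667 to 0.893). Hlx, a homeobox factor of Th1 cells, had 3.87 and 1.42 RPKM, a ratio of 2.72 (2.16 to 3.45). Of 23 T helper lineage factors, Prdm1 and Hlx were the 2 at or over 2-fold, beside 0.444% of all genes. The median was 0.15, and Bcl6 (-0.29) and Maf (-0.26) were lowest. Gtf2b, the general transcription factor TFIIB, had 74.1 RPKM with IL-2 and 27.1 RPKM without, a ratio of 2.74 (2.56 to 2.93). Ncoa7, a nuclear receptor coactivator, had 13.1 and 6.03 RPKM, a ratio of 2.17 (1.95 to 2.402).

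Receptors and signal regulators made up most of the remaining genes. Il10ra, the IL-10 receptor chain, stood at 79.1 RPKM with IL-2 and 17.8 RPKM without, a ratio of 4.45 (4.24 to 4.66). Ptger4, the prostaglandin E2 receptor EP4, stood at 38.7 and 11.7 RPKM, a ratio of 3.31 (3.08 to 3.57), and Adora2b, an adenosine receptor, at 3.38 and 0.568 RPKM, a ratio of 5.96 (4.15 to 8.77). These 3 receptors are known for restraining immune cells. Slamf1, a costimulatory surface receptor, stood at 47.0 and 17.05 RPKM, a ratio of 2.76 (2.60 to 2.92), and Mfsd2a, a lipid transporter, at 4.59 and 1.22 RPKM, a ratio of 3.77 (2.97 to 4.83). Rgs1, which switches off G protein signals from chemokine receptors, had 262 RPKM with IL-2 and 122 RPKM without, a ratio of 2.15 (2.08 to 2.22).

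Genes on both sides of the ERK pathway were among the higher ones. Map3k8, a kinase that activates ERK, stood at 37.7 RPKM with IL-2 and 13.9 RPKM without, a ratio of 2.72 (2.54 to 2.91). Spry1, an inhibitor of RAS signals, stood at 8.28 and 1.66 RPKM, a ratio of 4.99 (4.15 to 6.03). The dual-specificity phosphatases were split: Dusp6, which acts on ERK, was at 34.3 and 17.7 RPKM, a difference of 0.91, whereas Dusp2 was at 57.5 RPKM with IL-2 and 107 RPKM without (-0.89) and Dusp10 at 15.5 and 24.4 RPKM (-0.62). Of 17 measured MAP kinase feedback genes, Spry1 was the 1 at or over 2-fold, beside 0.444% of all genes, and the median was 0.10. Among other signalling genes, Plk2, a polo-like kinase, stood at 15.6 and 5.14 RPKM, a ratio of 3.04 (2.74 to 3.38). Trib3, a pseudokinase, stood at 7.13 and 2.62 RPKM, a ratio of 2.72 (2.28 to 3.24), and Ppp1r3b, a glycogen-targeting subunit of protein phosphatase 1, at 14.5 and 3.32 RPKM, a ratio of 4.37 (3.95 to 4.84).

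Gadd45g, a stress protein that activates p38 signals, had 96.4 RPKM with IL-2 and 19.6 RPKM without, a ratio of 4.93 (4.54 to 5.35). Ier3, an early response survival gene, stood at 22.5 and 5.31 RPKM, a ratio of 4.24 (3.62 to 4.99), and Sesn2, a sestrin that restrains mTOR, at 18.1 and 7.28 RPKM, a ratio of 2.49 (2.27 to 2.73). Of the 24 survival and G1 genes measured, Gadd45g was the 1 at or over 2-fold, beside 0.444% of all genes. Cdkn1a, the p21 inhibitor, was next at 90.4 and 50.2 RPKM (0.83). The death-promoting genes Pmaip1 and Bbc3 were lowest in that list, Pmaip1 at 4.32 RPKM with IL-2 and 6.62 RPKM without (-0.52) and Bbc3 at 13.5 and 18.8 RPKM (-0.45). Frmd4b, a FERM domain scaffold, stood at 35.3 and 10.2 RPKM, a ratio of 3.47 (3.29 to 3.67). Fam46a, named Tent5a in RefSeq and encoding a poly(A) polymerase, stood at 41.5 and 15.2 RPKM, a ratio of 2.73 (2.61 to 2.85). Gm12250, which RefSeq also names Irgb10, encodes an interferon-inducible GTPase of a family with similar copies and stood at 71.1 and 33.7 RPKM, a ratio of 2.11 (2.02 to 2.205). How reads were assigned among such copies is not given in the sources used here. The 19 interferon-stimulated genes listed had a median of 0.01 and 0 at or over 2-fold, beside 0.444% of all genes. Usp18, an inhibitor of interferon signals (0.24), and the transcription factor gene Irf1 at 296 RPKM with IL-2 and 252 RPKM without (0.23) were highest, and Mx1 (-0.19) and Ifit2 (-0.16) lowest.

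Few genes were lower after 0.5 h of IL-2. Tgif1, a homeobox corepressor of TGF-beta signals, had 237 reads (5.82 RPKM) with IL-2 and 770 reads (16.2 RPKM) without, a ratio of 0.359 (0.309 to 0.416). Arrdc3, an arrestin family gene, had 305 reads (2.53 RPKM) and 968 reads (6.89 RPKM), a ratio of 0.367 (0.322 to 0.418). Id3 is given above, and Gm11346, a transcribed pseudogene in RefSeq, had 75 and 214 reads, a ratio of 0.409 (0.310 to 0.534). Just short of the threshold were Ddit4, the stress-induced mTOR inhibitor, at 41.7 RPKM with IL-2 and 83.9 RPKM without (-0.99), Smad7, the TGF-beta feedback inhibitor, at 5.74 and 12.3 RPKM (-0.98), and Rgs16 at 2.35 and 5.46 RPKM (-0.95).

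Tgif1, Id3 and Smad7 are all on the list of Id, E protein and TGF-beta pathway genes. In that list 2 of 21 measured genes were at or over 2-fold lower and 1 was higher (Id1), beside 0.0362% and 0.407% of all genes. The list's median was -0.02. Of 26 FOXO target and quiescence genes, 18 lay below 0 and 8 above, beside 4889 of 11047 genes below 0. Arrdc3 was the 1 at or over 2-fold lower, beside 0.0362% of all genes, and the median was -0.09 beside 0.02 over all genes. Irs2, a FOXO target, lay on the opposite side at 16.0 RPKM with IL-2 and 8.32 RPKM without (0.87), and S1pr1, the egress receptor, was next at 40.7 and 36.8 RPKM (0.14). Of 11 measured RNA decay factors 8 lay below 0, beside the same 4889 of 11047, led downwards by Btg2 (-0.89) and by Zfp36l2 at 63.0 and 101 RPKM (-0.67), while Zc3h12a was highest at 24.0 and 21.9 RPKM (0.12), and the median was -0.04. The listed noncoding RNAs Malat1, Neat1, Xist, Kcnq1ot1, Snhg1 and Gas5 were lower in this library too. They were 6 of 6 below 0, beside the same 4889 of 11047, with a median of -0.26. Among them Neat1 stood at 67.1 RPKM with IL-2 and 93.3 RPKM without, and Malat1 at 105 and 138 RPKM. Their part in the lower values of other genes was not tested.

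At the upper threshold, the 5 genes just inside were Ncoa7 (1.00), Hlx (1.01), Il10 (1.04), Gm12250 (1.06) and Rgs1 (1.10). The 5 just outside were Hk2, which starts glycolysis (11.3 RPKM with IL-2 and 5.16 RPKM without, 0.996), the glucose transporter gene Slc2a1 (30.7 and 15.0 RPKM, 0.99), Serpina3g (8.04 and 3.66 RPKM, 0.96), Selp, which encodes P-selectin (5.41 and 2.33 RPKM, 0.95), and Arl4a (8.84 and 4.13 RPKM, 0.94). No gap in size separates the genes on either side of the threshold.

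STAT5 target genes were described as one list of 27, all measured. In this list 13 genes reached 2-fold on the higher side (48.1%, beside 0.407% of all genes), 0 were lower, and the median was 0.68. The list was chosen with results of these libraries known and is no independent evidence of its direction. Its members with the lowest values were Ctla4, the checkpoint receptor, at 51.7 RPKM with IL-2 and 72.5 RPKM without (-0.48), and Foxp3, the regulatory T cell factor, at 4.18 and 4.35 RPKM (-0.05). Il2ra is a member, with the values given above. Among the 16 housekeeping genes the median was -0.02, with Actb highest (0.23).

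**Figure D3:**
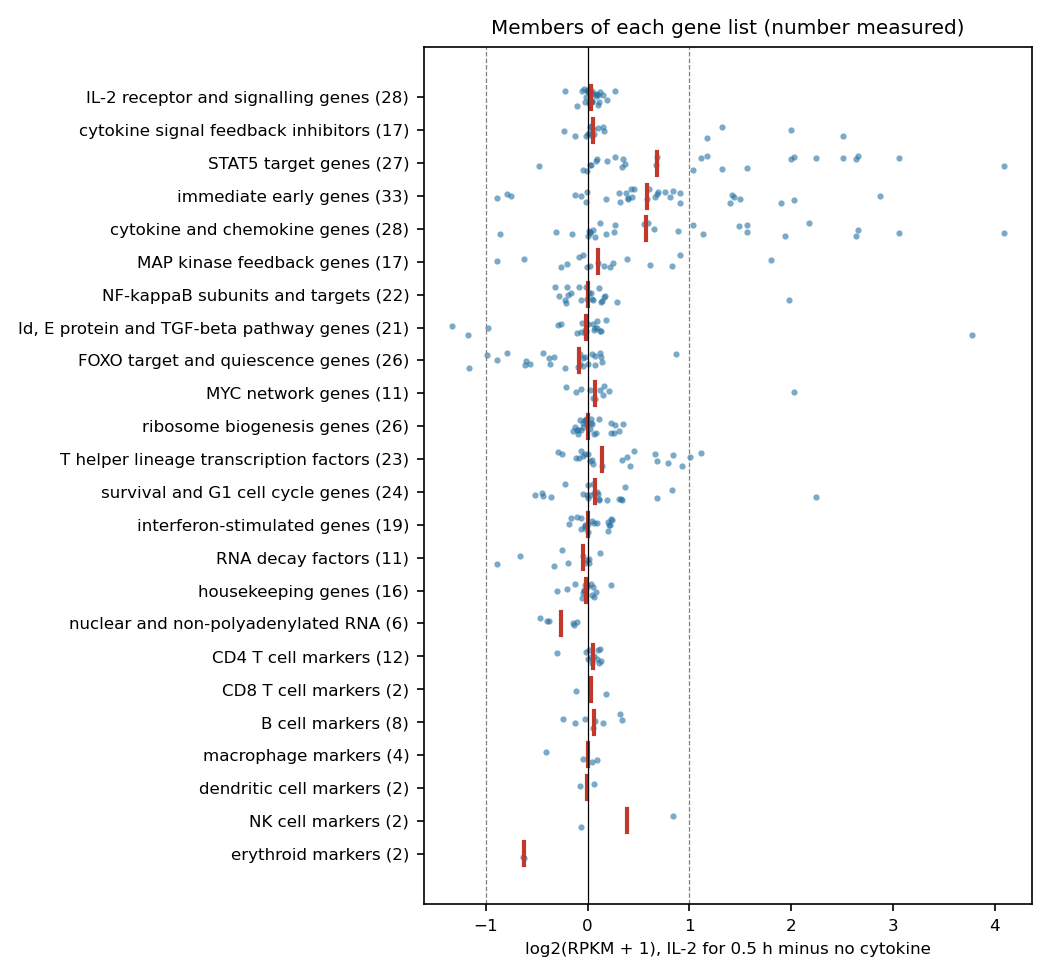
Difference in log2(RPKM + 1), IL-2 for 0.5 h minus no cytokine (horizontal), for each measured member (blue point) of 24 gene lists, with the list's median as a red bar and 2-fold as dashed lines. The lists of STAT5 targets, immediate early genes and cytokines have medians of 0.68, 0.58 and 0.57, while those of receptor and signalling genes and ribosome biogenesis genes sit at 0.03 and 0.01.

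The higher genes had no common starting level, and they were somewhat shorter. Their level without cytokine ran from 0.331 RPKM (Hbegf) to 149 RPKM (Cish), with a median of 5.97 RPKM beside 9.56 RPKM over all genes. Their median transcript length was 2161 bases beside 2638 bases over all genes. Of the 49 genes, 9 have several transcripts in the files, and in 8 of these every transcript was at or over 2-fold. The exception was Ncoa7, with differences of 0.69 and 1.00 for its transcripts.

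In the later IL-2 libraries the same genes followed different courses. All comparisons with the library without cytokine share that library, so levels are given here instead of differences. Of the 45 genes, 36 had their highest IL-2 level at 0.5 h, 5 at 4 h and 4 at 24 h, beside 35.5% of all genes at 0.5 h. The genes were chosen for their level at 0.5 h, so this count has no bearing beyond them. At 2 h their level was between 4.70% and 317.8% of that at 0.5 h, with a median of 50.7%, and 12 of the 45 were at or under their level without cytokine.

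Id1 and 5 of the 6 higher immediate early or growth transcription factor genes (Egr1, Egr2, Fos, Maff and Csrnp1) were near or under their level without cytokine at 2 h. Id1 stood at 0.543 RPKM without cytokine and at 20.1, 0.945, 1.33 and 0.884 RPKM after 0.5, 2, 4 and 24 h of IL-2. In the same order Egr1 stood at 5.01, 43.1, 2.53, 2.26 and 1.33 RPKM, Maff at 3.47, 10.98, 0.925, 0.756 and 0.805 RPKM, and Frmd4b at 10.2, 35.3, 5.68, 3.71 and 1.90 RPKM. Egr1, Maff and Frmd4b were thus under their level without cytokine by 2 h, and Id1 was within 1 RPKM of it. At 2 h of IL-21, Egr1 at 2.21, Maff at 0.803 and Id1 at 0.322 RPKM were under that level too, whereas Frmd4b at 14.3 RPKM was above it. The labels give no time for the library without cytokine, so it is not matched to 2 h. Myc, the exception among the 6, stayed above it, with 65.1, 269, 107, 107 and 93.6 RPKM, and so did Socs3, with 26.1, 153, 60.1, 63.6 and 44.0 RPKM. Of the 11 cytokine or growth factor genes, 9 had at least 71.3% of their 0.5 h level at 2 h, and Csf2 (43.3%) and Hbegf (36.2%) had less. Lif stood at 2.48, 58.5, 53.2, 62.5 and 78.2 RPKM, Osm at 10.2, 69.3, 65.6, 69.0 and 43.2 RPKM, and Lta at 22.4, 194, 257, 283 and 130 RPKM. Csf2 stood at 1.30, 5.45, 2.36, 2.68 and 1.15 RPKM, and so was under its level without cytokine at 24 h. Another 4 genes went on to higher levels after 0.5 h. Socs2 stood at 7.73, 20.8, 66.1, 80.7 and 132 RPKM, Il13 at 2.80, 7.34, 22.9, 24.9 and 20.5 RPKM, Mir17hg at 3.22, 8.09, 21.8, 31.1 and 16.3 RPKM, and Mfsd2a at 1.22, 4.59, 7.70, 9.58 and 6.34 RPKM. Together with Lta, these were the 5 genes with a higher level at 2 h of IL-2 than at 0.5 h. Mir17hg and Mfsd2a were higher at 2 h of IL-21 too. They stood at 4.20 and 4.44 RPKM after 0.5 h of IL-21 and at 16.6 and 6.39 RPKM after 2 h. Socs2 at 16.3 and 16.2 RPKM and Il13 at 3.28 and 2.36 RPKM, after 0.5 and 2 h of IL-21, were not. Il2ra, with a ratio of 1.03 at 0.5 h, stood at 302, 433 and 596 RPKM at 2, 4 and 24 h of IL-2. After the same times of IL-21 it stood at 278, 187 and 109 RPKM, beside 78.5 RPKM without cytokine. Its higher level at 2 h was thus not particular to IL-2.

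**Figure D4:**
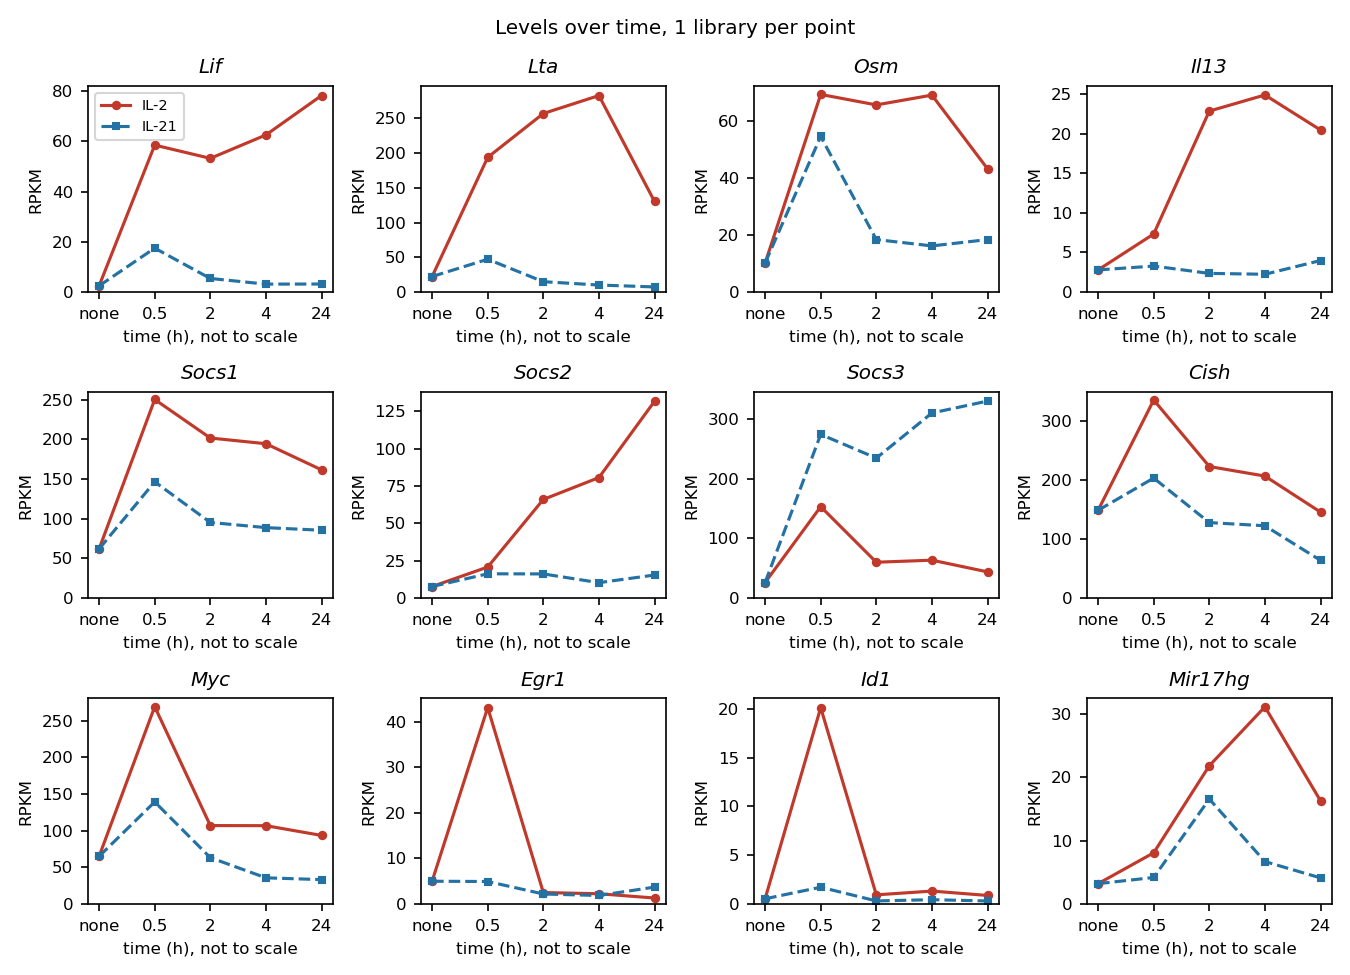
RPKM (vertical, from 0) of 12 genes without cytokine and after 0.5, 2, 4 and 24 h (horizontal, not to scale) of IL-2 (red circles) or IL-21 (blue squares), 1 library per point and the same library without cytokine in both lines. Egr1 and Id1 peak at 43.1 and 20.1 RPKM at 0.5 h of IL-2 and are back at 2 h, whereas Socs2 climbs to 132 RPKM at 24 h.

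Beside IL-21 at the same time, the genes also differed among themselves. Egr1 had 43.1 RPKM after 0.5 h of IL-2, 4.95 RPKM after 0.5 h of IL-21 and 5.01 RPKM without cytokine, and Tnf 44.8, 11.3 and 10.9 RPKM. Gtf2b with 74.1, 28.8 and 27.1 RPKM, Sesn2 with 18.1, 7.27 and 7.28 RPKM, Maff with 10.98, 3.79 and 3.47 RPKM and Egr2 with 8.62, 2.68 and 2.64 RPKM gave the same picture, a level with IL-21 close to that without cytokine. Others were at least as high with IL-21: Socs3 at 153, 275 and 26.1 RPKM, Gadd45g at 96.4, 172 and 19.6, Map3k8 at 37.7, 56.7 and 13.9, Prdm1 at 12.7, 23.2 and 5.29, and Il10 at 8.83, 25.03 and 3.79. Csrnp1 at 61.7, 62.1 and 22.4 RPKM and Rgs1 at 262, 259 and 122 RPKM were nearly equal with both cytokines. Several genes with large differences had a level with IL-21 between those with IL-2 and without cytokine. In the same order, Lif stood at 58.5, 17.5 and 2.48 RPKM, Lta at 194, 47.3 and 22.4, and Osm at 69.3, 54.5 and 10.2. Il24 stood at 11.03, 6.53 and 0.938 RPKM, Socs1 at 250, 147 and 62.0, Myc at 269, 139 and 65.1, and Id1 at 20.1, 1.73 and 0.543. Tgif1 was at 5.82 RPKM with IL-2, 8.32 with IL-21 and 16.2 without cytokine, and Id3 at 5.23, 4.25 and 13.0.

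**Figure D5:**
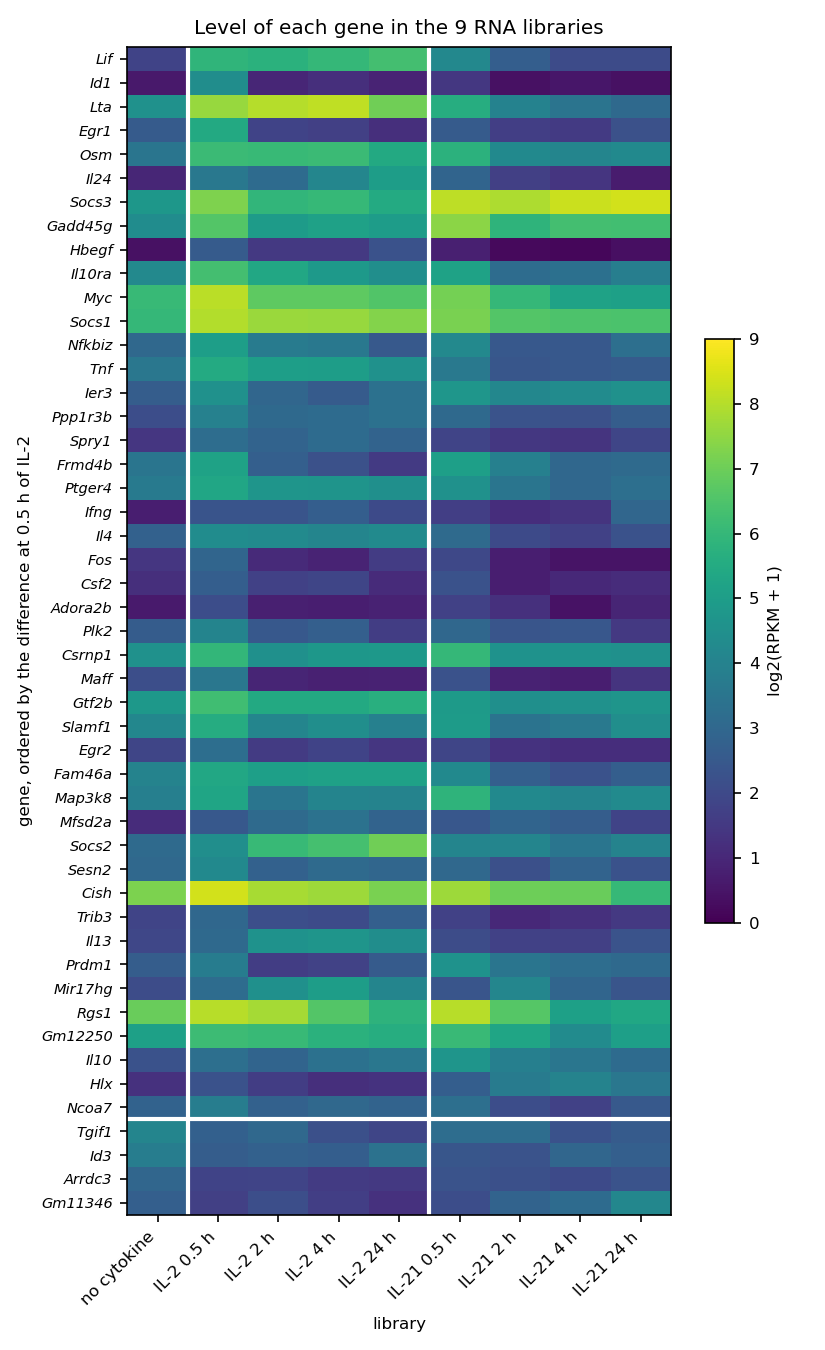
Level of the 49 genes, as log2(RPKM + 1) in colour, in the 9 RNA libraries (columns: no cytokine, then IL-2 and IL-21 at 4 times each); rows are ordered by the difference at 0.5 h of IL-2, with the 4 lower genes under the white line. Lif, Lta and Osm stay bright across the IL-2 columns, while Id1, Egr1 and Maff are bright at 0.5 h alone.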

How the data were processed

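A stranded kit and Illumina instruments were used for the RNA libraries, per the labels' protocols. The submitters' processing notes name HOMER, SAMtools, TopHat2 2.0.11, Bowtie 0.12.9 and the build mm9 without saying what each did. Which program counted reads, and whether by strand, is not given in the sources used here, so overlapping genes on opposite strands cannot be told apart. The deposited files give a whole-number count and an RPKM value per RefSeq transcript, with chromosome and strand, per the file headers. Every deposited RPKM equals the count scaled to length and to 1 total per library.

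Of 23222 symbols, 746 of short RNAs were left out, and each other symbol was represented by its transcript of highest mean RPKM across 9 libraries. Members and gene lists were chosen with earlier results of these data known. Named genes are all those at or over 2-fold, those nearest the threshold, the 2 extremes of each list in each direction, and the receptor, JAK, STAT and SOCS genes. A few genes that this rule names are not reported here. Ratio intervals are exact conditional binomial ones. Python 3.11.15, scipy 1.17.1 and R 4.3.3 were used, with edgeR 4.0.16 for scaling factors alone. The scripts were tested on simulated data. Alternatives covered pseudocount, filter, scaling, choice of transcript and short RNAs. All 49 genes were found in RefSeq by transcript.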

Additional observations from a re-analysis of the deposited data

How the results depend on the processing

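Counts of genes past 2-fold depended most on the value added before taking logs. With 0.25 RPKM added, 67 genes were higher and 19 lower; with 4 RPKM added, 30 were higher and 1 lower. There Id3, Arrdc3 and Gm11346 fell short of 2-fold, and so did 15 higher genes: Adora2b, Csf2, Egr2, Fos, Gm12250, Hlx, Ifng, Il10, Il13, Mfsd2a, Mir17hg, Ncoa7, Prdm1, Sesn2 and Trib3. With short RNAs kept, 60 were higher and 10 lower. All 45 higher and 4 lower genes stayed past 2-fold with 0.25 RPKM added and with short RNAs kept. Neither setting can bring a gene back under 2-fold, so this is no check of them. The filter left both counts at 45 and 4, which was fixed in advance. With 1 RPKM added, a gene past 2-fold has at least 1 RPKM in 1 of the libraries compared. It therefore passes the filter, so this is no check either. TMM, upper quartile and median-of-ratios scaling gave 44, 43 and 43 higher and 5 lower each, adding Ddit4 and losing Ncoa7, and Hlx under the last 2. The longest transcript of each symbol gave 44 and 4. No named gene at or over 2-fold changed direction, but most settings could not have reversed one. The value added keeps the sign, and the scaling factors of 0.984 to 0.994 are too close to 1. Only the choice of transcript could have reversed a gene, and only one with several transcripts. No paired analysis was possible because each condition has 1 library, which also means that no library could be left out and that intervals cover counting error only.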
